A study of Homo sapiens with 12 samples.

Results

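The genes described are 10 members of the WNT signalling pathway, taken by their symbols from a table of 58302 genes; all 10 were found, each in 1 row. They are the ligand genes WNT5A, WNT7A, WNT7B and WNT10A, the receptor gene FZD7, the genes of the secreted antagonists DKK1, DKK3 and SFRP1, the feedback target AXIN2 and the transcription factor LEF1. Their mRNA was measured by RNA sequencing in 3 established human prostate cell lines with 4 libraries each: BPH-1, an immortalized line of benign prostate epithelium, and the PCa cell lines DU145 and PC3, which were derived from metastases. All 12 libraries were labelled wild type, and all lines were grown in DMEM with serum and antibiotics, with no treatment. Each group is 1 cell line, so differences between benign and PCa cells and differences between these particular lines cannot be told apart.

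WNT proteins are secreted lipid-modified ligands that bind Frizzled receptors together with the co-receptors LRP5 and LRP6. In the beta-catenin branch, binding stops the destruction complex from degrading beta-catenin, which then joins TCF and LEF factors in the nucleus and switches on targets, among them AXIN2, itself a scaffold of the destruction complex. In the other branches, ligands such as WNT5A act through Frizzled and ROR receptors on cell polarity and movement. Dickkopf and secreted Frizzled-related proteins hold the pathway back outside the cell, and in the prostate WNT signals guide bud growth and epithelial renewal.

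Values are FPKM, reads scaled by the length of the gene and the depth of the library. Library depth, recovered from the steps between low values, was between 12950660 and 16309562 reads. Within a line, libraries correlated with r = 0.894 to 0.987 across 14960 genes, which are not independent replicates, and between lines with r = 0.687 to 0.861. The DU145 libraries stood apart in pairs: replicates 1 and 3 correlated with r = 0.98, replicates 2 and 4 with r = 0.98, and libraries of different pairs with r = 0.89 to 0.95. The mean GC content of the transcripts, weighted by reads, was 52.0% and 52.8% in DU145 replicates 1 and 3, 49.6% and 49.96% in replicates 2 and 4, 48.1% to 48.5% in BPH-1 and 50.5% to 52.2% in PC3. Of 6 epithelial markers, 6 had a mean FPKM of at least 1 in BPH-1, 4 in PC3 and 3 in DU145, and their summed FPKM was 272 to 376 in BPH-1, 84.6 to 163 in DU145 and 220 to 367 in PC3. EPCAM and CDH1, which define epithelial cells, were low in DU145, with mean FPKM of 0.376 and 0.180, against 60.8 and 28.4 in BPH-1. CDH1 was at 0.786 in PC3. The keratin gene KRT5 was also low in DU145, at 0.216 against 146.9 in BPH-1. The keratin genes KRT8, KRT18 and KRT19 were not, with mean FPKM of 19.65, 68.95 and 22.68 in DU145. In BPH-1 they were at 31.13, 35.82 and 31.96. The luminal prostate markers KLK3 and KLK2 had at most 3 reads in any library of the 3 lines. Of 6 leukocyte markers, 3 had a mean FPKM of at least 1 in BPH-1, 2 in DU145 and 1 in PC3, and their summed FPKM was 14.4 to 19.1 in BPH-1, 5.10 to 15.4 in DU145 and 6.94 to 13.7 in PC3. PTPRC, which marks leukocytes of all kinds, had 225 to 295 reads in BPH-1, 275 and 256 in DU145 replicates 1 and 2, and 0 in DU145 replicates 3 and 4 and in each PC3 library. LYZ, the lysozyme of myeloid cells, had 308 to 400 reads in BPH-1, 326, 365, 0 and 0 in DU145 replicates 1 to 4, and 1 to 6 in PC3, while the T cell marker CD3E had at most 3 in every library.

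In a count set up after these values were seen, 13 genes had at least 50 reads in both DU145 replicates 1 and 2 and at most 3 in both replicates 3 and 4, against 1 to 3 genes for any other choice of 2 DU145 libraries. PTPRC, LYZ, S100A8, S100A9 and FCGR3B were among them. Summed FPKM of the 13 genes was 109 to 693 in BPH-1, 54.5 to 57.9 in DU145 replicates 1 and 2, at most 0.0513 in DU145 replicates 3 and 4, and 2.81 to 4.68 in PC3. S100A9 gave most of these sums, with 80.6 to 636 in BPH-1 and 30.7 and 31.9 in DU145 replicates 1 and 2. LYZ was at 7.61 to 10.1 in BPH-1 and 7.76 and 8.63 in those DU145 libraries, and PTPRC at 1.15 to 1.54 and 1.35 and 1.25. S100A9, and S100A8 with 3.91 to 28.9, thus varied far more over the BPH-1 libraries than PTPRC and LYZ. The sum in BPH-1 is therefore not a measure of leukocyte RNA. The part of leukocyte RNA in the differences between BPH-1 and the PCa lines was not tested. The comparisons with DU145 are also given without each pair of its libraries.

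Each PCa cell line was compared with BPH-1, and PC3 was then compared with DU145, so that any pair of comparisons shares the libraries of 1 line. The labels do not say whether the 4 libraries of a line came from separate cultures, and p-values then measure only the spread between these libraries. A gene was called when limma gave a Benjamini-Hochberg adjusted p under 0.05 over all genes tested. Fold changes are differences on the log2(FPKM + 1) scale with their standard error (SE), which understates the change of genes with low FPKM; for such genes the ratio of depth-scaled reads, pooled over the 4 libraries, is given with its exact 95% interval, which covers counting error only. Members, and the gene lists below, were chosen with earlier results of these data known. Counts of called members are thus no test of the WNT genes as a group. In PC3 against BPH-1, 67.6% of 16407 genes tested were called (27.1% higher, 40.4% lower). Of the 10 members 10 were called, 5 higher and 5 lower in PC3. All 10 also had libraries that did not overlap between these lines, as had 64.4% of all genes tested. In DU145 against BPH-1, 8 of 10 were called, 2 higher and 6 lower in DU145, where 62.7% of 17017 genes were called (30.3% higher, 32.4% lower); 7 of 10 did not overlap, against 59.5% of all genes. In PC3 against DU145, 8 members had enough reads to be tested and 8 were called, 5 higher and 3 lower in PC3. Of 16421 genes, 48.3% were called (20% higher, 28.3% lower). Among the members 8 of 8 did not overlap, against 46.5% of all genes. In each comparison, members near 0 in 1 line were tested only through their reads in the other line. For them a call and no overlap were close to fixed in advance. Where every library of both lines needed 10 reads, 5 of 5, 4 of 6 and 5 of 5 members were called in this order. The shares of all genes called were then 64.6%, 58.6% and 41.1%. In DU145 against BPH-1, 7 members were called without DU145 replicates 1 and 2 and 6 without replicates 3 and 4. WNT7B was lost in both (-0.58 and -0.73) and FZD7 in the latter (0.35). Without replicates 1 and 3, 9 were called, with DKK1 added (0.74), and without replicates 2 and 4, 7, with WNT7B lost (-0.46). Of all genes, 54.9%, 53.2%, 59.1% and 72.1% were called without these pairs, in this order. For PC3 against DU145, 8 members were called without each of these 4 pairs, beside 37.6% to 54.6% of all genes. With 4 libraries against 4, the smallest p of a two-sided exact permutation test is 0.0286. In bulk RNA, fewer cells that express a gene and less RNA per cell cannot be told apart. The median log2 fold change of the members was 0.14, -0.65 and 0.88 in these comparisons, beside -0.13, -0.03 and -0.05 over all genes tested.

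**Figure D1:**
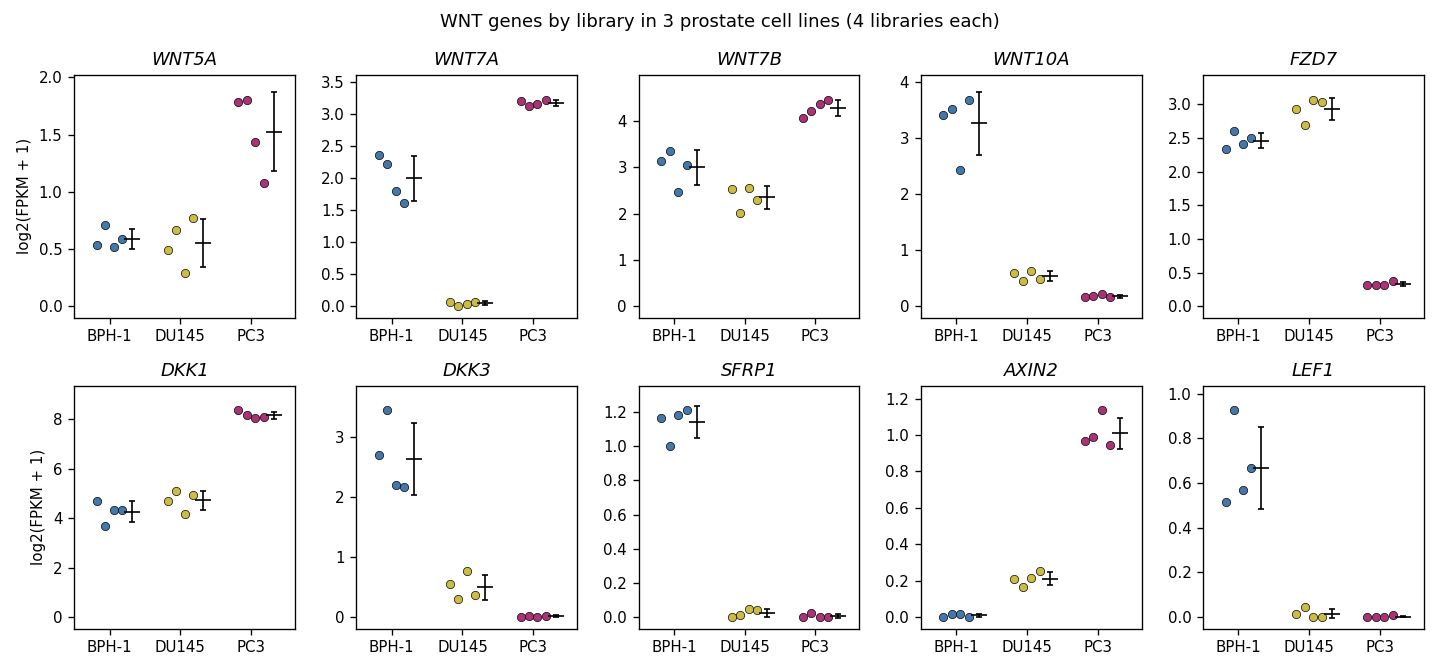
Level of each of the 10 WNT genes as log2(FPKM + 1) on the y axis, which has its own scale in each panel, by cell line on the x axis; each point is 1 library, in the order of replicates 1 to 4, and the black mark and bar are the mean and SD of 4 libraries. DKK1 lies highest in PC3, WNT7A is near 0 in DU145, FZD7 is lowest in PC3, and WNT10A, DKK3, SFRP1 and LEF1 are high only in BPH-1 among these 3 lines.

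The ligand genes gave 4 different patterns over the 3 lines. WNT7A and WNT7B were highest in PC3, WNT10A was highest in BPH-1, and WNT5A was higher in PC3 than in the other lines.

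WNT7A lies on chromosome 3 (GRCh38, 13816258 to 13880121, minus strand) and encodes a ligand of epithelia and of the female reproductive tract. Its FPKM was 4.16, 3.68, 2.49 and 2.07 in the BPH-1 libraries and 8.26, 7.74, 7.91 and 8.40 in the PC3 libraries. In DU145 it had 4, 0, 2 and 3 reads, against 161 to 319 reads in BPH-1. The lines did not overlap, and PC3 varied least, with an SD of 0.302 around a mean FPKM of 8.08 (n = 4), against 3.10 ± 0.980 in BPH-1 (SD, n = 4). WNT7A was higher in PC3 than in BPH-1 by 1.18 ± 0.17 (log2, SE, limma adjusted p = 0.000205). Against BPH-1 it fell by 1.96 in DU145 on the same log2 scale (SE 0.16, limma adjusted p = 7e-06), and pooled reads were 105 times as many in BPH-1 (interval 55.0 to 230.1). Between the PCa lines the difference was 3.14 ± 0.12 (log2, SE, limma adjusted p = 1.93e-07), higher in PC3.

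WNT7B lies on chromosome 22 (45920362 to 45977129, minus strand) and encodes a close relative of WNT7A. Its FPKM was 7.78, 9.25, 4.52 and 7.26 in BPH-1 and 4.79, 3.05, 4.88 and 3.88 in DU145. In PC3 it was 15.8, 17.6, 19.6 and 21.1, above every library of the other lines. WNT7B rose in PC3 by 1.28 ± 0.19 against BPH-1 (log2, SE, limma adjusted p = 0.000234) and by 1.93 ± 0.17 against DU145 (limma adjusted p = 1.77e-05). BPH-1 and DU145 overlapped, since BPH-1 replicate 3 lay below DU145 replicates 1 and 3. Their difference of -0.65 ± 0.22 (log2, SE) passed the limma test (adjusted p = 0.0256) but not the two-sided exact permutation test over libraries (p = 0.0857). That call was also lost with upper-quartile scaling (-0.40) and without any 1 of BPH-1 replicates 1, 2 or 4 or DU145 replicates 2 or 4 (-0.64 to -0.53). WNT7A and WNT7B are similar in sequence, but in DU145 WNT7B had 333 to 519 reads where WNT7A had at most 4.

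WNT10A lies on chromosome 2 (218880363 to 218899581, plus strand) and encodes a ligand of skin, hair and teeth. Its FPKM was 9.72, 10.5, 4.41 and 11.9 in BPH-1, with replicate 3 the lowest. In DU145 it was 0.516, 0.373, 0.542 and 0.396, and in PC3 0.117, 0.129, 0.164 and 0.117, from 6 to 9 reads a library. The 3 lines were ordered BPH-1, DU145, PC3 with no overlap. WNT10A was lower than in BPH-1 in both PCa lines, with differences of -3.09 ± 0.25 in PC3 (log2, SE, limma adjusted p = 5.09e-06) and -2.73 ± 0.26 in DU145 (limma adjusted p = 1.47e-05). Pooled reads were 68.8 times as many in BPH-1 as in PC3 (interval 47.5 to 104) and 19.9 times as many as in DU145 (interval 16.5 to 24.3). Between the PCa lines the difference was -0.36 ± 0.06 (log2, SE, limma adjusted p = 0.000611), a call that was lost when all 3 lines were fitted together (adjusted p = 0.183).

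WNT5A lies on chromosome 3 (55465715 to 55490539, minus strand) and encodes the main ligand of the beta-catenin-independent branch. Its FPKM was 0.446, 0.631, 0.434 and 0.507 in BPH-1. In DU145 it was 0.407, 0.586, 0.223 and 0.707, with replicates 2 and 4 above replicates 1 and 3, the same pairs as in the whole transcriptome; the part of those pairs in the value was not tested. In PC3 it was 2.45, 2.498, 1.71 and 1.104, above all libraries of the other lines. WNT5A rose in PC3 by 0.94 ± 0.16 against BPH-1 (log2, SE, limma adjusted p = 0.000592) and by 0.97 ± 0.19 against DU145 (limma adjusted p = 0.0023). DU145 and BPH-1 overlapped, and their difference of -0.03 ± 0.11 (log2, SE) was not called (limma adjusted p = 0.803); its sign turned with upper-quartile scaling (0.05), with the GC trend divided out (0.26) and without BPH-1 replicate 2 (0.01), DU145 replicate 3 (0.06) or DU145 replicates 1 and 3 (0.13). The gene overlaps WNT5A-AS1 on the opposite strand over 610 bases, and the sources used here do not say whether reads were counted by strand; WNT5A-AS1 had at most 3 reads in any library, and WNT5A 50 to 498.

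The RefSeq promoters (GRCh38.p14, 250 bases before to 50 after a start, 5′ to 3′ on the gene's strand) of WNT7A and WNT10A are shown because each of these ligand genes was well read in BPH-1 and near 0 in a PCa line. Neither holds CTTTGA, a core motif of TCF and LEF factors, on either strand in this window, and 12.9% of 35116 RefSeq promoters of the same length hold it. WNT7A has 40 CpG here and WNT10A 30, against a median of 14 over those promoters.
WNT7A, chr3:13880022-13880321, minus strand: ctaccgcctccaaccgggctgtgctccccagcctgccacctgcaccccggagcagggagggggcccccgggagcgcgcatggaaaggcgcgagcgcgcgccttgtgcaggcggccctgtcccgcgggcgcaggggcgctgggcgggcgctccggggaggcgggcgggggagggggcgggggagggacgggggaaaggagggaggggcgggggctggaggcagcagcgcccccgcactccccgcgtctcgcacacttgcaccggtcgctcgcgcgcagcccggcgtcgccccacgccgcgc
WNT10A, chr2:218880602-218880901, plus strand: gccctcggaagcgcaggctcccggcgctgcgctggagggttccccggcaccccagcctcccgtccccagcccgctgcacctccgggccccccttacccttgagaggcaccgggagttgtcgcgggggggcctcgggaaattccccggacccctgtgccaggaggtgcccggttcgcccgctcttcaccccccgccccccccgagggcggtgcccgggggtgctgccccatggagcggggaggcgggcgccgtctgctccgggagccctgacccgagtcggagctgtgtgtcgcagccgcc

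Over all 19 human WNT ligand genes, summed FPKM was 28.0 ± 6.66 in BPH-1, 15.9 ± 3.45 in DU145 and 48.3 ± 10.1 in PC3 (SD, n = 4). The members made up different shares of that sum. In BPH-1, WNT10A was 31.7% of ligand FPKM (23.9% to 38.0% over libraries), WNT7B 25.6% (23.1% to 27.7%) and WNT7A 11.4% (6.62% to 14.4%). In PC3, WNT7B was 38.9% (33.7% to 42.3%) and WNT7A 17.2% (13.4% to 20.2%), while WNT10A was 0.282%. In DU145, WNT7B was 26.2% (24.1% to 28.7%), beside WNT3 with 25.5% and WNT10B with 20.9%. WNT5A stayed below 6% of ligand FPKM in every library of the 3 lines. These shares depend on gene length, which here counts bases of overlapping exons more than once. For WNT5A it is 14544 bases, against 7397 with exons merged, and for WNT7A 4973 against 4579. With merged exons the mean of WNT5A in PC3 was 3.81 instead of 1.94.

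Of the 19 ligands, 10 had enough reads for the test of PC3 against BPH-1, and 4 were higher and 2 lower in PC3. Of all genes tested there, 27.1% were higher and 40.4% lower. WNT9A was the ligand outside the members with the largest difference there. Its FPKM was 2.04 ± 0.336 in BPH-1, 1.87 ± 0.634 in DU145 and 14.6 ± 8.03 in PC3 (SD, n = 4), from 9.02 to 26.2 over the PC3 libraries, and PC3 was higher than BPH-1 by 2.24 ± 0.29 (log2, SE, limma adjusted p = 0.000107). In DU145 against BPH-1, 11 ligands were tested, 3 higher and 4 lower in DU145, beside 30.3% and 32.4% of all genes. WNT10B (1.08 ± 0.151 in BPH-1, 3.36 ± 1.04 in DU145) and WNT3 (1.99 ± 0.342 and 4.02 ± 0.763) were higher in DU145, by 1.04 ± 0.19 and 0.74 ± 0.17 (log2, SE, limma adjusted p = 0.000806 and 0.00346), and WNT4 (1.64 ± 0.900 and 0.347 ± 0.0776, limma adjusted p = 0.00645) was lower. In PC3 against DU145, 11 were tested, 5 higher and 5 lower in PC3, beside 20% and 28.3% of all genes.

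**Figure D2:**
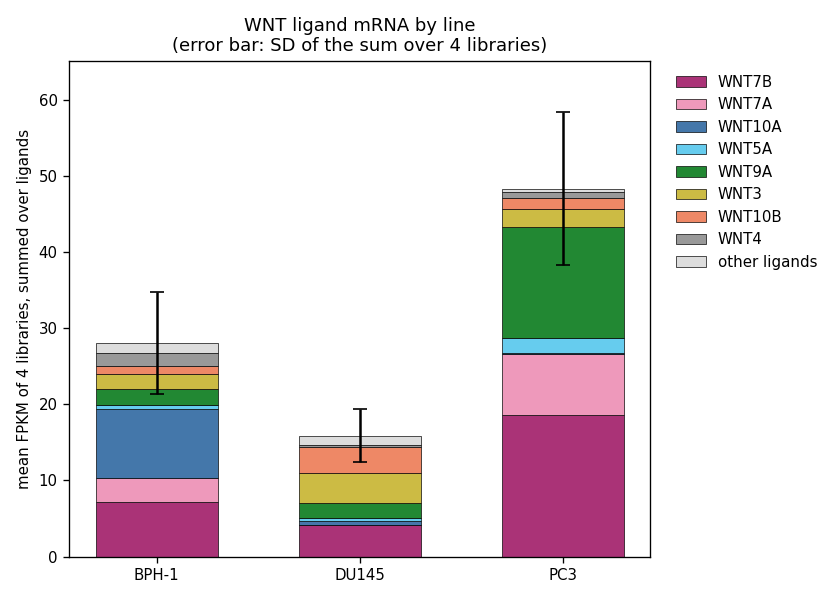
Summed FPKM of the 19 WNT ligand genes on the y axis, by cell line on the x axis; each coloured part is the mean of 1 ligand gene over 4 libraries, and the black bar is the SD of the sum over 4 libraries. The sum is 28.0 in BPH-1, 15.9 in DU145 and 48.3 in PC3, and WNT10A, the largest part in BPH-1, is nearly absent from the PCa lines.

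FZD7, the receptor gene among the members, lies on chromosome 2 (202034587 to 202038445, plus strand) and is read from 1 exon. It encodes a Frizzled receptor found on epithelial stem cells. FPKM was 4.05, 5.04, 4.29 and 4.65 in BPH-1, and 6.62, 5.47, 7.39 and 7.17 in DU145. In PC3 it was 0.2401, 0.246, 0.243 and 0.3001, from 12 to 15 reads a library. Every PC3 library lay below every library of the other lines, and every DU145 library above every BPH-1 library. FZD7 was lower in PC3, by -2.13 ± 0.10 against BPH-1 (log2, SE, limma adjusted p = 1.59e-07) and by -2.60 ± 0.14 against DU145 (limma adjusted p = 1.16e-06). Pooled reads were 17.6 times as many in BPH-1 as in PC3 (interval 13.3 to 23.6). DU145 was higher than BPH-1 by 0.47 ± 0.15 (log2, SE, limma adjusted p = 0.0211), but that call was lost when libraries were rescaled to the same FPKM sum (0.26), with the GC trend divided out (0.34) and without BPH-1 replicate 1 (0.43) or 3 (0.45).

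FZD8 and FZD4 were highest in PC3, where FZD7 was lowest. FPKM of FZD8 was 1.38, 0.992, 1.55 and 1.29 in BPH-1 and 0.842, 0.335, 0.804 and 0.573 in DU145. In PC3 it was 125, 148, 141 and 161. FZD8 thus stood at a mean FPKM of 144 ± 14.9 in PC3 (SD, n = 4), higher than in BPH-1 by 5.97 ± 0.12 (log2, SE, limma adjusted p = 2.6e-09) and than in DU145 by 6.47 ± 0.15 (limma adjusted p = 2.8e-08). FZD4, a receptor of vessels and retina, was at 1.05 ± 0.142 in BPH-1, 0.726 ± 0.425 in DU145 and 21.6 ± 8.27 in PC3 (SD, n = 4), and rose in PC3 by 3.37 ± 0.27 against BPH-1 (log2, SE, limma adjusted p = 5.76e-06). FZD6 was at 8.69 to 10.6 in BPH-1 and was lower in PC3 by -2.04 ± 0.32 (log2, SE, limma adjusted p = 0.00032). In DU145 its FPKM was 2.15, 10.6, 0.984 and 8.62, so that replicates 2 and 4 stood at the level of BPH-1 and replicates 1 and 3 far below; the part of the DU145 pairs in this was not tested.

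Of 16 receptors and co-receptors, 14 were tested in PC3 against BPH-1, 4 higher and 8 lower in PC3, beside 27.1% and 40.4% of all genes. LRP5, a co-receptor, was among the 4 higher ones (14.5 ± 1.73 in BPH-1, 36.8 ± 3.92 in PC3, SD, n = 4), with 1.29 ± 0.12 (log2, SE, limma adjusted p = 1.33e-05). Of the 15 tested in DU145 against BPH-1, 3 were higher and 5 lower, beside 30.3% and 32.4% of all genes. The other co-receptor, LRP6, was lower in DU145 (6.13 ± 0.362 in BPH-1, 1.84 ± 1.35 in DU145), by -1.46 ± 0.32 (log2, SE, limma adjusted p = 0.00264), and in PC3 (2.11 ± 0.802), by -1.23 ± 0.19 (limma adjusted p = 0.000283). FZD9 was low but higher in DU145 than in BPH-1, at 12 to 36 reads a library against 1 to 5 (limma adjusted p = 0.00036). In PC3 against DU145, 15 were tested, 4 higher and 4 lower in PC3, beside 20% and 28.3% of all genes. PTK7, a pseudokinase co-receptor, was at 6.79 ± 1.48 in DU145 and 2.32 ± 0.165 in PC3 (limma adjusted p = 0.000292).

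**Figure D3:**
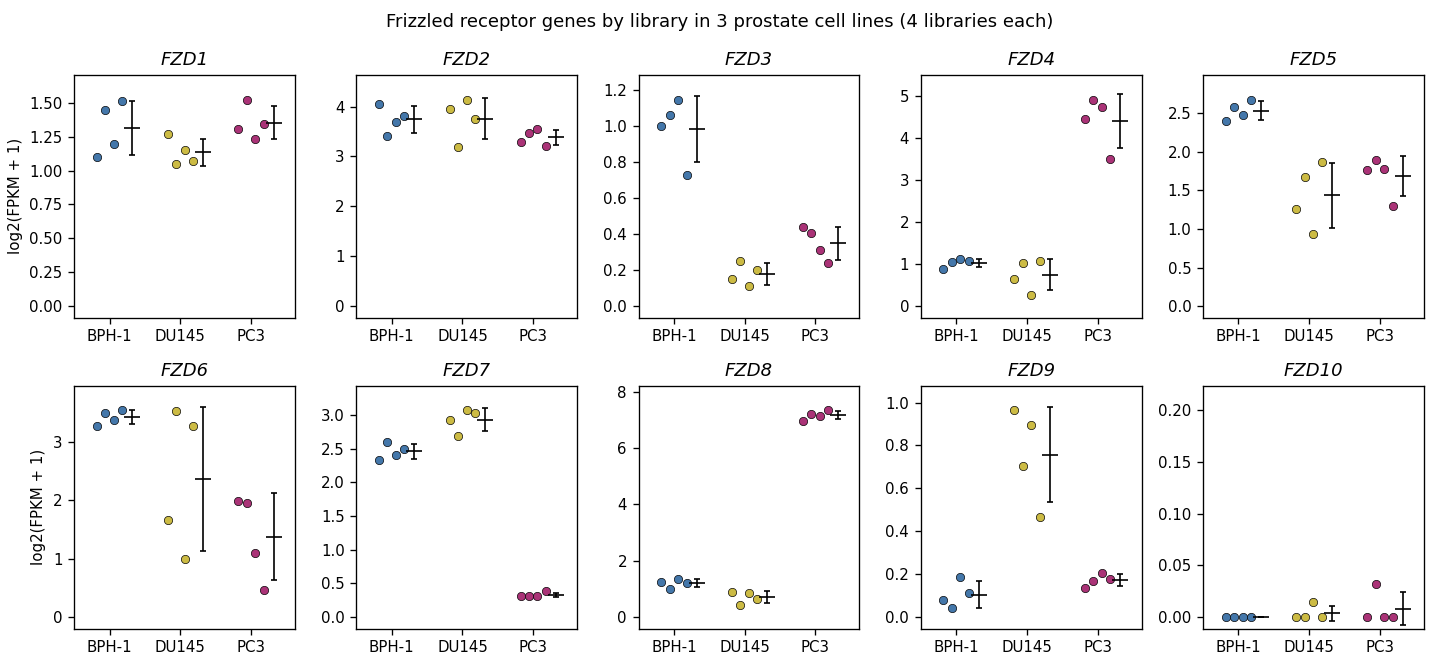
Level of the 10 Frizzled receptor genes as log2(FPKM + 1) on the y axis, which has its own scale in each panel, by cell line on the x axis; each point is 1 library, in the order of replicates 1 to 4, and the black mark and bar are the mean and SD of 4 libraries. FZD7 is lowest in PC3, where FZD8 and FZD4 are highest, and the FZD6 points of DU145 split into replicates 1 and 3 against 2 and 4.

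Products of the 9 R-spondin and receptor-turnover genes keep Frizzled receptors on the cell surface or remove them. In PC3 against BPH-1, where 67.6% of all genes were called, 3 of the 9 were tested. Of these 3, 0 were called by limma, 0 also at an unadjusted p under 0.05. By the exact permutation test 1 of them passed, ZNRF3 (p = 0.0286), which like RNF43 removes receptors and was also called with upper-quartile or median-of-ratios scaling and by voom; LGR4 and RNF43 were called with equal FPKM sums. In DU145 against BPH-1, 5 were tested, 2 higher and 2 lower, beside 30.3% and 32.4% of all genes. RNF43, a ubiquitin ligase that removes Frizzled receptors, was at 2.09 ± 0.265 in BPH-1, 0.0288 ± 0.00852 in DU145 (4 to 7 reads a library) and 1.69 ± 0.342 in PC3 (SD, n = 4). DU145 was lower than BPH-1 by -1.58 ± 0.09 (log2, SE, limma adjusted p = 6.53e-07). LGR6, an R-spondin receptor, had 98 to 320 reads in the DU145 libraries, 10 to 34 in BPH-1 and 0 in each PC3 library. RSPO1, an R-spondin, had 15 to 32 reads in DU145 and 0 in each library of the other lines, where a count of 0 allows up to 3 reads.

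The secreted antagonists split: DKK1 was highest in PC3, while DKK3 and SFRP1 were at or near 0 there.

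DKK1 lies on chromosome 10 (52314296 to 52318042, plus strand) and encodes Dickkopf-1, which binds LRP5 and LRP6 and is itself a target of beta-catenin. Its FPKM was 25.1, 11.9, 19.3 and 18.9 in BPH-1 and 25.2, 32.9, 17.1 and 29.4 in DU145. In PC3 it was 329, 289, 265 and 270.3, from 10235 to 12458 reads a library. Every PC3 library lay far above every library of the other lines. DKK1 rose in PC3 by 3.91 ± 0.19 against BPH-1 (log2, SE, limma adjusted p = 2.62e-07) and by 3.45 ± 0.20 against DU145 (limma adjusted p = 1.88e-06). Pooled reads were 15.3 times as many in PC3 as in BPH-1 and 11.03 times as many as in DU145. DU145 and BPH-1 overlapped, and their difference of 0.46 ± 0.26 (log2, SE) was not called (limma adjusted p = 0.143); it was called with upper-quartile scaling (0.74), with the GC trend divided out (1.11) and without DU145 replicate 3 (0.64). DU145 replicates 2 and 4 were the higher ones for DKK1 too, and the part of the pairs was not tested.

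The RefSeq promoter of DKK1 (GRCh38.p14) is shown because the gene had the highest FPKM of the members in PC3. CTTTGA occurs in it on the forward strand with its first base at position -95 from the start, and as its reverse complement TCAAAG with its first base at -149; both are in capitals. It holds 20 CpG.
DKK1, chr10:52314031-52314330, plus strand: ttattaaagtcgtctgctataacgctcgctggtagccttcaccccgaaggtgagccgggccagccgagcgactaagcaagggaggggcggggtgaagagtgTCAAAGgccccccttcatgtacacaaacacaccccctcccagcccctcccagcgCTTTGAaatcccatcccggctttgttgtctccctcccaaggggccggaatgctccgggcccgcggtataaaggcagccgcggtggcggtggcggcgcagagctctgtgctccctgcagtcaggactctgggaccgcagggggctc

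DKK3 lies on chromosome 11 (11963106 to 12009769, minus strand) and encodes a Dickkopf relative that does not bind LRP co-receptors like DKK1. Its FPKM was 5.51, 9.86, 3.58 and 3.49 in BPH-1, with replicate 2 the highest, and 0.457, 0.237, 0.702 and 0.288 in DU145. In PC3 it had 0, 2, 0 and 2 reads, against 508 to 1404 reads in BPH-1. No libraries of the 3 lines overlapped. DKK3 was lower than in BPH-1 by -2.62 ± 0.25 in PC3 (log2, SE, limma adjusted p = 1.72e-05) and by -2.13 ± 0.27 in DU145 (limma adjusted p = 0.000103). Pooled reads were 13.2 times as many in BPH-1 as in DU145 (interval 11.6 to 15.1) and 697 times as many as in PC3 (interval 272 to 2561). PC3 was also below DU145, by -0.48 ± 0.09 (log2, SE, limma adjusted p = 0.00213), a call lost when all 3 lines were fitted together (adjusted p = 0.0956). Within DU145, replicates 1 and 3 were higher than 2 and 4, and the part of those pairs was not tested.

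SFRP1 lies on chromosome 8 (41261958 to 41309497, minus strand) and encodes a secreted protein with a Frizzled-like domain that binds WNT ligands. Its FPKM was 1.24, 1.004, 1.27 and 1.31 in BPH-1, from 127 to 170 reads. In DU145 it had 0, 1, 4 and 3 reads, and in PC3 0, 2, 0 and 0. The PCa lines overlapped each other and had too few reads to be compared by the test. SFRP1 was lower than in BPH-1 by -1.13 ± 0.06 in PC3 (log2, SE, limma adjusted p = 4.03e-07) and by -1.12 ± 0.07 in DU145 (limma adjusted p = 1.04e-06). The ratio of pooled reads was 268 for BPH-1 over PC3 (interval 73.8 to 2216) and 76.8 for BPH-1 over DU145 (interval 38.7 to 179).

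Among 13 secreted antagonists, DKK1 was 71.9% of summed FPKM in BPH-1 (51.9% to 79.0% over libraries), 95.9% in DU145 and 99.9% in PC3. The sum was 25.9 ± 4.28 in BPH-1, 27.1 ± 6.45 in DU145 and 288.5 ± 29.2 in PC3 (SD, n = 4). DKK3 was 22.3% of it in BPH-1, 1.799% in DU145 and 0.00288% in PC3. As for the ligands, these shares depend on the length used, which is 9327 bases for DKK3 against 5059 with exons merged. For DKK1 it is 2923 against 2206. With the DKK receptors KREMEN1 and KREMEN2 the list holds 15 genes. Of these, 5 were tested in PC3 against BPH-1, 1 higher and 4 lower in PC3, beside 27.1% and 40.4% of all genes. KREMEN2 was at 1.87 ± 0.411 in BPH-1, 0.287 ± 0.0807 in DU145 and 0.549 ± 0.0777 in PC3 (SD, n = 4), lower than BPH-1 in both PCa lines (limma adjusted p = 3.49e-05 and 0.000132). In DU145 against BPH-1, 6 were tested, 1 higher and 3 lower, beside 30.3% and 32.4% of all genes. The higher one was NOTUM, a WNT-inactivating enzyme, with 18 to 48 reads a library in DU145 and at most 2 in BPH-1. In PC3 against DU145, 5 were tested, 2 higher and 3 lower in PC3, beside 20% and 28.3% of all genes.

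**Figure D4:**
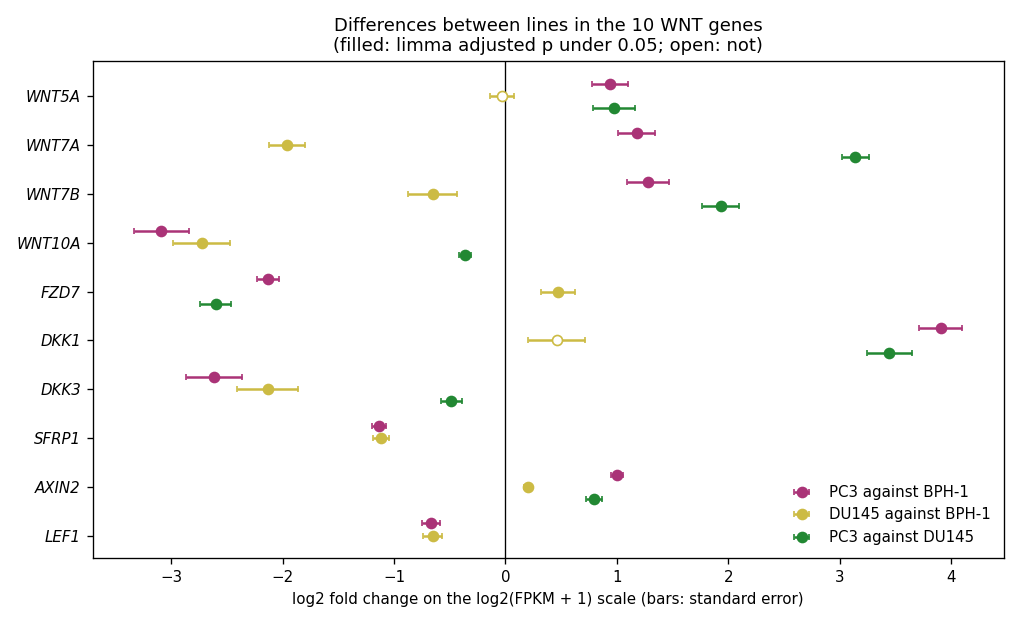
Difference between lines in each of the 10 WNT genes, as log2 fold change on the log2(FPKM + 1) scale on the x axis, with bars of 1 SE; colours are the 3 comparisons, filled points passed limma's adjusted p under 0.05 and open points did not. On this scale, which understates low genes, DKK1 lies farthest to the right in PC3 against BPH-1 (3.91) and WNT10A farthest to the left (-3.09), and WNT5A and DKK1 are open in DU145 against BPH-1; SFRP1 and LEF1 have no point for PC3 against DU145 because they were not tested there.

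AXIN2 lies on chromosome 17 (65528563 to 65561647, minus strand). It was at or near 0 in BPH-1, with 0, 2, 2 and 0 reads. FPKM in DU145 was 0.154, 0.120, 0.162 and 0.193, from 22 to 29 reads, and in PC3 0.957, 0.982, 1.20 and 0.923, from 134 to 186 reads. The lines were ordered BPH-1, DU145, PC3 with no overlap, although even the PC3 level was a mean FPKM of 1.015 ± 0.123 (SD, n = 4). AXIN2 rose against BPH-1 by 1 ± 0.06 in PC3 (log2, SE, limma adjusted p = 5.55e-07) and by 0.20 ± 0.04 in DU145 (limma adjusted p = 0.000756). PC3 lay above DU145 by 0.80 ± 0.07 (limma adjusted p = 2e-05). Ratios of pooled reads over BPH-1 were 176 in PC3 (interval 68.5 to 649) and 26.9 in DU145 (interval 10.2 to 101). The gene AC004805.1 overlaps AXIN2 on the same strand over 23546 bases and had 0 reads in all 12 libraries.

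LEF1 lies on chromosome 4 (108047545 to 108168956, minus strand) and encodes the factor through which beta-catenin acts in many progenitor cells. Its FPKM was 0.427, 0.899, 0.482 and 0.587 in BPH-1, from 94 to 196 reads. In DU145 it had 2, 7, 0 and 0 reads, and in PC3 0, 0, 0 and 1. It was thus high where AXIN2 was lowest. The libraries with reads of LEF1, 4 of BPH-1 and DU145 replicates 1 and 2, were also those with reads of PTPRC, apart from 1 LEF1 read in PC3. FPKM of S100A9 was 80.6, 636, 87.2 and 330.48 in BPH-1, 30.7, 31.9, 0 and 0 in DU145 and 2.54 to 4.25 in PC3. PTPRC had 275 and 256 reads in DU145 replicates 1 and 2, against 225 to 295 in BPH-1. LEF1 had 2 and 7 reads in those DU145 libraries, against 94 to 196 in BPH-1. In BPH-1, replicates 2 and 4 were the higher ones for LEF1 and S100A9. PTPRC and LYZ were highest in replicate 2 (FPKM 1.54 and 10.1) but lowest in replicate 4 (1.15 and 7.61). The part of leukocyte RNA in the LEF1 value was not tested. LEF1 was lower than in BPH-1 by -0.67 ± 0.08 in PC3 (log2, SE, limma adjusted p = 7.59e-05) and by -0.65 ± 0.08 in DU145 (limma adjusted p = 9.92e-05). The ratio of pooled reads for BPH-1 over PC3 was 457 (interval 81.6 to 18079) and over DU145 58.2 (interval 30.4 to 128). LEF1-AS1 overlaps it on the opposite strand over 1432 bases and had at most 2 reads in any library.

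The RefSeq promoter of LEF1 in the table, at a start inside the gene (GRCh38.p14), is shown because WNT10A, DKK3, SFRP1 and LEF1 were each lower in both PCa lines. It holds 9 CpG and no CTTTGA on either strand, as in the WNT10A promoter above.
LEF1, chr4:108166252-108166551, minus strand: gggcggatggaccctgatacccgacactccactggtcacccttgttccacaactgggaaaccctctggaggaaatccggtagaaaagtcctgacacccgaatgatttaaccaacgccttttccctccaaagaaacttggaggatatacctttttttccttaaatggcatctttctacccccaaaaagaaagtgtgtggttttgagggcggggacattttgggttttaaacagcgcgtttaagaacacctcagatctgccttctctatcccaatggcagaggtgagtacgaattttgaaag

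Of the 12 targets of WNT and beta-catenin on the list, 8 were tested in PC3 against BPH-1, 6 higher and 2 lower in PC3, beside 27.1% higher and 40.4% lower of all genes. TNFRSF19, 1 of the 6 (0.28, limma adjusted p = 0.0464), overlapped between the lines and lost its call in 10 of 20 alternatives, the exact permutation test among them (p = 0.0857). TBX3, a T-box repressor, was at 3.24 ± 0.985 in BPH-1, 1.21 ± 0.245 in DU145 and 20.2 ± 4.92 in PC3 (SD, n = 4), so it rose in PC3 by 2.33 ± 0.21 (log2, SE, limma adjusted p = 1.05e-05) while DU145 was lower than BPH-1 by -0.92 ± 0.19 (limma adjusted p = 0.00208). DU145 against BPH-1 had 9 tested, 6 higher and 3 lower, beside 30.3% and 32.4% of all genes. NKD2, which binds Dishevelled, was at 0.388 ± 0.156 in BPH-1, 5.95 ± 1.65 in DU145 and 2.95 ± 0.596 in PC3, and BAMBI, a pseudoreceptor of the TGF-beta family, at 0.735 ± 0.280, 4.34 ± 1.17 and 6.45 ± 1.85 (SD, n = 4). Both were higher in each PCa line than in BPH-1 (limma adjusted p from 9.06e-06 to 7.54e-05). CD44, an adhesion receptor, was lower in both, at 30.9 ± 1.74 in BPH-1, 10.8 ± 4.12 in DU145 and 9.58 ± 0.918 in PC3 (limma adjusted p = 0.000456 in DU145 and 1.31e-06 in PC3). CCND1, which encodes cyclin D1, was at 69.0 ± 8.79 in BPH-1, 115 ± 12.1 in DU145 and 182 ± 7.46 in PC3, higher in PC3 than in DU145 by 0.66 ± 0.12 (log2, SE, limma adjusted p = 0.00194). In PC3 against DU145, 9 were tested, 4 higher and 2 lower in PC3, beside 20% and 28.3% of all genes.

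Among 12 TCF and LEF factors and cofactors, 12 were tested in PC3 against BPH-1. In PC3 4 were higher and 2 lower, with LEF1 1 of the lower ones, beside 27.1% and 40.4% of all genes. TLE2, a Groucho corepressor, was at 0.293 ± 0.149 in BPH-1, 5.03 ± 1.47 in DU145 and 2.36 ± 0.430 in PC3, and BCL9, a coactivator of beta-catenin, at 5.52 ± 0.741, 10.9 ± 0.962 and 14.3 ± 1.72 (SD, n = 4). Both were higher in each PCa line than in BPH-1 (limma adjusted p from 9.64e-06 to 0.000669). DU145 against BPH-1 had 12 tested, 5 higher and 1 lower, beside 30.3% and 32.4% of all genes. The lower one was LEF1. In PC3 against DU145, 11 were tested, 1 higher and 3 lower in PC3, beside 20% and 28.3% of all genes.

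In the destruction complex and Dishevelled list, 13 of 13 genes were tested in each comparison. In PC3 3 were higher and 6 lower than in BPH-1, beside 27.1% and 40.4% of all genes. In DU145 1 was higher and 5 lower than in BPH-1, beside 30.3% and 32.4%. In PC3 5 were higher and 2 lower than in DU145, beside 20% and 28.3%. DVL1, which relays the receptor signal, was at 11.3 ± 1.96 in BPH-1, 10.6 ± 3.63 in DU145 and 42.2 ± 2.14 in PC3 (SD, n = 4), higher in PC3 than in BPH-1 by 1.83 ± 0.13 (log2, SE, limma adjusted p = 2.4e-06). BTRC, part of the ligase that marks beta-catenin for degradation, was at 6.86 ± 0.657 in BPH-1 and lower in DU145 (1.97 ± 0.865) and PC3 (2.73 ± 0.311), with limma adjusted p = 0.000356 and 3.42e-05. CTNNB1, which encodes beta-catenin, was at 17.5 ± 2.68 in BPH-1, 9.26 ± 1.74 in DU145 and 14.0 ± 0.679 in PC3, and was lower in DU145 by -0.86 ± 0.18 (log2, SE, limma adjusted p = 0.00231), a call lost with the GC trend divided out (-0.23). PORCN, the enzyme that attaches the lipid to WNT ligands, was lower in PC3 than in BPH-1 (2.08 ± 0.277 and 0.982 ± 0.0750, limma adjusted p = 0.000371).

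Over the whole list of 98 pathway genes, the members included, 47 of 67 tested were called in PC3 against BPH-1 (22 higher, 25 lower, beside 67.6% of all genes), 45 of 73 in DU145 against BPH-1 (21 higher, 24 lower, beside 62.7%) and 44 of 71 in PC3 against DU145 (23 higher, 21 lower, beside 48.3%). Median log2 fold changes of the list were -0.10, -0.04 and -0.12, beside -0.13, -0.03 and -0.05 over all genes.

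The genes whose pattern over the 12 libraries was most like that of AXIN2, by Pearson's r of log2(FPKM + 1) over 13131 candidate genes, were AP000695.2 (r = 0.997), LOXL1-AS1, NPAS2, HEY1 and KCNMA1. Mean FPKM of HEY1, a NOTCH target, was 0.181 in BPH-1, 0.609 in DU145 and 2.96 in PC3, the same order as AXIN2. For LEF1 they were PLEKHA4 (r = 0.992), C3, APOE, TNFSF10 and RNF141, and C3, a complement component, was at 23.5 in BPH-1, 0.852 in DU145 and 0.943 in PC3. The 12 points share 3 cell lines, so these values mostly describe levels per line.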

How the data were processed

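RNA sequencing was described for 12 libraries of 3 cell lines. The authors deposited 1 table of normalized values for 58302 genes with GRCh38 coordinates, whose header names no unit. The deposited values are written FPKM here because their steps gave whole reads (within 0.05) for 93.0% to 94.2% of low values of protein-coding genes, with gene length as the sum of distinct exons in GENCODE 29; 263 genes without a length were left out of the tests. The submitters' processing notes name CASAVA 1.8 and HISAT2 2.1.0; the counting program and its use of strand are not given in the sources used here.

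The recovered reads served for depth, the filter and the pooled ratios. Genes that reached 10 reads (scaled to the median depth) in 4 libraries, and 15 in all, were tested with limma 3.58.1 (intensity trend, R 4.3.3) on log2(FPKM + 1), each fit holding the libraries of its 2 lines. The fit was tested on simulated data. Exact permutation tests were two-sided. Named genes were the 10 members, up to 4 called genes per role list and comparison with the largest fold change, and 5 genes most like AXIN2 and LEF1; ZNRF3, RYK, TNFRSF19, PTPRC, LYZ, S100A8, S100A9 and FCGR3B were chosen after their values were seen. Members and lists were chosen with earlier results of these data known. Same-numbered libraries of different lines did not deviate together as a rule (r from -0.685 to 0.54), so numbers were not taken as pairs. Replicate 2 of PC3 and of DU145 did (r = 0.54). Some PC3 libraries deviated with DU145 libraries of another number: replicate 1 with DU145 replicate 2 (r = 0.577) and replicate 4 with DU145 replicate 3 (r = 0.728). Other software was Python 3.11.15, numpy 2.4.6, pandas 2.3.3, scipy 1.17.1 and matplotlib 3.10.9. Alternatives were other pseudocounts, filters, scalings, a replicate block, 1 fit over all lines, and leaving out each library; a GC correction, with the GC of GENCODE 29 transcripts, and leaving out pairs of DU145 libraries were added after seeing the data.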

Additional observations from a re-analysis of the deposited data

Results flagged for a closer look

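In each line, the 4 libraries of each member were checked for 1 library far from the others by Dixon's ratio; 3 of 30 groups passed its 95% limit, where chance gives about 5%. All 3 are in PC3 and at low levels. SFRP1 was at an FPKM of 0.0176 in replicate 2, from 2 reads, and at 0 in the others. LEF1 was at 0.0054 in replicate 4, from 1 read, and at 0 in the others. FZD7 was at 0.3001 in replicate 4 (15 reads), against 0.2401 to 0.246 in the others (12 to 13 reads).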

How the results depend on the processing

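Of the alternatives to the members' log2 fold changes, 610 kept direction and call, 29 lost the call, 4 gained it and 5 turned direction. All 5 turns were WNT5A in DU145 against BPH-1: 0.053 with upper-quartile scaling, 0.262 with the GC trend divided out (limma adjusted p = 0.026, over all its alternatives 0.026 to 0.961), and between -0.104 and 0.056 when 1 library was left out, above 0 without BPH-1 replicate 2 or DU145 replicate 3, and 0.131 without DU145 replicates 1 and 3. Where every library of both lines needed 10 reads, which leaves out members near 0 in a line, 5 of 5 members were called in PC3 against BPH-1, 4 of 6 in DU145 against BPH-1 and, for PC3 against DU145, 5 of 5 members and 29 list genes, beside 64.6%, 58.6% and 41.1% of all genes; counts below keep this order. With a log2 fold change over 1 also required, 4 and 4 members were called in the comparisons with DU145, and 27, 19 and 12 list genes, beside 27%, 28.8% and 19.3% of all genes. Leaving out 1 library gave 10, 6 to 9 and 8 members, and 45 to 49, 40 to 46 and 38 to 47 list genes. The shares of all genes were then 63.1% to 67.1%, 55.4% to 65.7% and 41.7% to 49.1%. With a replicate block the counts were 10, 6 and 8 members and 46, 41 and 38 list genes, beside 65.4%, 59.5% and 41.1% of all genes. In DU145 against BPH-1, WNT7B (limma adjusted p = 0.059) and FZD7 (0.0676) were not called under the block. The libraries share only a number, and not every library correlated best with its own number. Without a pair of DU145 libraries, chosen after seeing the data, 40 to 53 list genes were called in DU145 against BPH-1 and 35 to 48 in PC3 against DU145. Of all genes, 53.2% to 72.1% and 37.6% to 54.6% were called in these comparisons.

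Libraries of BPH-1 summed to an FPKM of 246960 ± 2986, DU145 to 293757 ± 5858 and PC3 to 298496 ± 5975 (SD, n = 4). Scaling moved the median of all genes in PC3 against BPH-1 from -0.13 to -0.28 with equal sums and to 0.09 with upper quartiles, and the share of calls that were higher in PC3 from 40.2% to 30.3% and 54.7% (51.1% with the GC trend divided out). In DU145 against BPH-1 the median moved from -0.03 to -0.16 and 0.14. The members' split of 5 higher and 5 lower in PC3 against BPH-1 held under each of these, while in DU145 against BPH-1 1 of 7 called members was higher with equal sums and 3 of 8 with upper quartiles. Of the pathway list, 18 of 52 calls were higher in PC3 than in BPH-1 with equal sums and 29 of 52 with upper quartiles, and in DU145 17 of 43 and 27 of 48. At 0 to 9 reads a library, as for SFRP1 and LEF1 in the PCa lines, differences between those lines were not detectable at this depth.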

Other observations

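Several pathway genes outside the members varied widely over the DU145 libraries. TNKS2, a tankyrase that turns over Axin, ranged from 1.28 to 10.6 FPKM over the DU145 libraries and from 20.9 to 25.6 in BPH-1, and TNKS from 0.639 to 5.05 in DU145 and from 2.52 to 3.73 in BPH-1. LGR4, an R-spondin receptor, ranged from 0.263 to 1.41 in DU145, from 1.10 to 3.57 in PC3 and from 2.93 to 4.24 in BPH-1. The call of LGR4 in PC3 against DU145 (limma adjusted p = 0.0279) was lost in 10 of 24 alternatives and that of GSK3B (adjusted p = 0.0342) in 11 of 24. PORCN in DU145 against BPH-1 (-0.46 ± 0.17, log2, SE, limma adjusted p = 0.0389) lost its call in 11 of 24. RYK, a receptor kinase, had a log2 difference of -0.68 in PC3 against BPH-1 that became 0.68 with the GC trend divided out, with a call in both directions.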
